A study of Mus musculus with 6 samples.

Results

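The genes described here encode the subunits of the 5 oxidative phosphorylation complexes. They were chosen by name, as the protein-coding genes of the mitochondrial genome and the nuclear genes of the Nduf, Sdh, Uqcr, Cyc1, Cox4 to Cox8 and Atp5 families, and 90 of the 7834 gene names in the table met the rule. Of these, 13 are encoded in mitochondrial DNA (7 in complex I, 1 in complex III, 3 in complex IV and 2 in complex V) and 77 in the nucleus (35, 3, 9, 13 and 17 in complexes I to V). Ndufa4 was placed with complex IV. The names are read as written, so Atp5l2-ps, a processed pseudogene, and Ndufb1-ps, which GENCODE lists as a noncoding transcript, are among the 77.

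Bulk RNA sequencing compared B-1a cells, the CD5+ subset of peritoneal B-1 cells, with B-1b cells, the CD5- subset. Both were sorted by flow cytometry from the peritoneal cavity of wild-type (WT) C57BL/6 mice with no treatment. The methods name male mice, and the labels and methods read here give no age for this experiment. The labels give 3 replicates per group. In all 193 rows of these genes, however, B-1b replicate 3 holds the values of replicate 1, and B-1a replicate 3 lies midway between the other two, so the 2 remaining libraries of each group were used. Nothing says that the replicates came from separate mice, so p-values measure the spread between these samples, which may be technical.

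Oxidative phosphorylation passes electrons along complexes I to IV of the inner mitochondrial membrane. Complexes I, III and IV pump protons as they do so, and complex V (ATP synthase) makes ATP from the proton gradient. Complex I takes electrons from NADH and complex II from succinate, complex III hands them from ubiquinol to cytochrome c, and complex IV reduces oxygen. Mitochondrial DNA encodes a few core subunits, transcribed as long precursors and then cut apart, whereas all other subunits, and the whole of complex II, come from nuclear genes whose products are imported. B-1 cells are innate-like B cells found mainly in the body cavities.

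Values are FPKM, fragments scaled to transcript length and to the size of the library, summed over the rows of a gene. The 4 libraries summed to 324330 to 366992 FPKM. Cd5, the sort marker, was at 0.446 and 0.757 FPKM in B-1a and 0.895 and 0.737 in B-1b, so its mRNA was near the lower limit in every library and did not separate the groups. Of the B-cell markers, Cd79a was at 2082 and 2219 FPKM in B-1a and 1384 and 1645.5 in B-1b, and Cd22 at 119 and 90.7 in B-1a and 144 and 137 in B-1b. The summed B-cell markers ranged from 3832 to 4075 FPKM in B-1a and 3532 to 3813 in B-1b. Markers of macrophages, the other main cells of the cavity, summed to 3707 to 5059 FPKM in B-1a and 4783 to 7649 in B-1b, most of it Lyz2, and 5 of 6 (Adgre1, Csf1r, Cd14, Itgam and Apoe) were higher in both B-1b libraries, as were 25.8% of all genes tested. The 4 T-cell markers measured summed to 8.35 to 12.3 FPKM in B-1a and 8.94 to 11.7 in B-1b (Cd3d at 1.37 to 2.74 and Trac at 0.457 to 1.94 over the 4 libraries), and no marker of neutrophils or NK cells is among the genes analysed here. The part of other cells in the results below was not tested.

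Mitochondrially encoded subunits had more signal in B-1b, and nuclear subunits had about the same amount in both groups. The 13 mitochondrial genes summed to 3858 and 4220.0 FPKM in the B-1a libraries (replicate 1, then replicate 2, here and throughout) against 8851 and 6941 in the B-1b libraries. As a share of all FPKM this was 1.11% and 1.22% in B-1a (mean 1.17% ± 0.0769, SD, n = 2) and 2.73% and 1.89% in B-1b (2.31% ± 0.592, n = 2). Both B-1b libraries lay above both B-1a libraries, and the difference of 1.14 percentage points had an exact two-sided permutation p of 0.33, the smallest that 2 against 2 libraries allow. With B-1b replicate 2 as the only B-1b library the difference was 0.723 percentage points, and with replicate 1 alone it was 1.56. The 77 nuclear genes took 1.83% and 1.99% in B-1a and 1.74% and 2.03% in B-1b, and here the groups overlapped (difference of -0.0248 percentage points, exact permutation p = 1.0). The ratio of mitochondrial to nuclear signal was therefore 0.610 and 0.613 in B-1a against 1.56 and 0.933 in B-1b, a difference of 0.98 in log2 ratio (exact permutation p = 0.33). With the nuclear copies of mitochondrial genes that are described below added to the mitochondrial sum, the ratio was 1.08 and 1.09 in B-1a and 2.64 and 1.61 in B-1b, and the log2 difference was 0.92. In bulk samples, fewer cells of a type and less RNA per cell cannot be told apart.

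**Figure D1:**
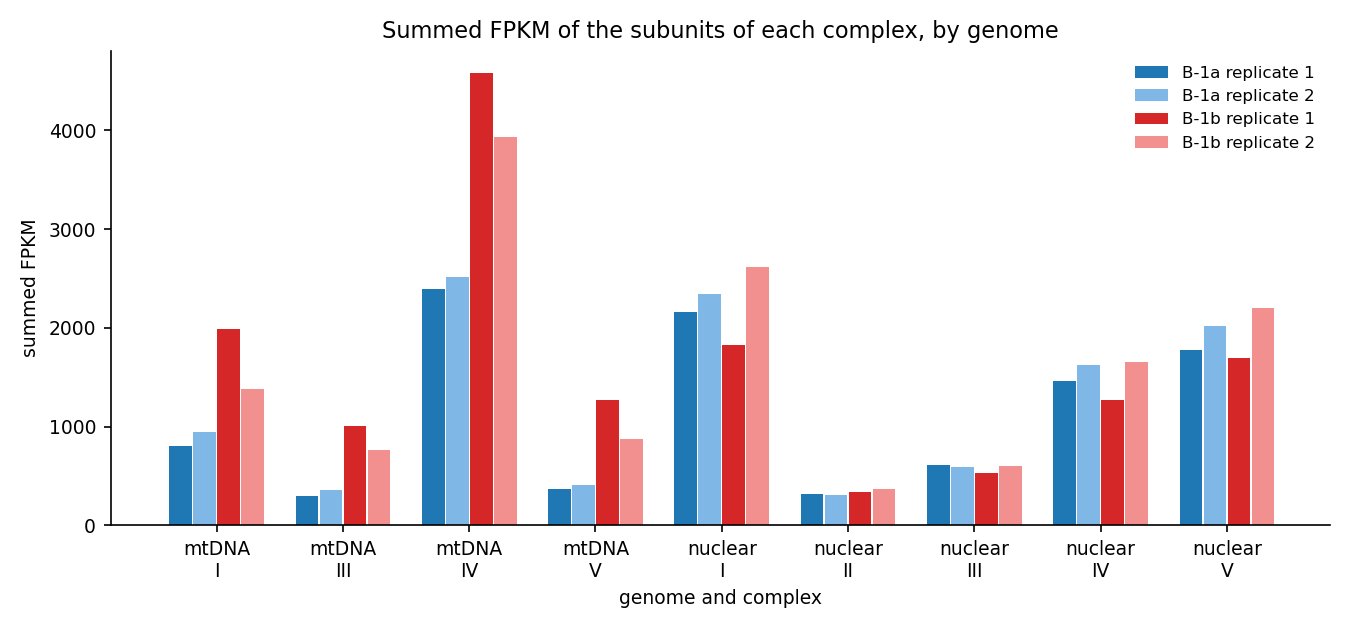
Bars give the summed FPKM of the subunits of each complex (y axis) by genome and complex (x axis), with 1 bar for each of the 4 libraries. In all 4 complexes with mitochondrial subunits both B-1b bars stand above both B-1a bars, whereas the nuclear sums of complexes I, III, IV and V overlap between the groups.

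The same split held within each complex that draws on both genomes. Mitochondrial subunits of complex I summed to 806 and 940.1 FPKM in B-1a and 1991 and 1380.2 in B-1b, beside nuclear sums of 2160 and 2342 in B-1a and 1831 and 2616 in B-1b. For complex III, mt-Cytb against 9 nuclear subunits gave ratios of 0.483 and 0.597 in B-1a and 1.91 and 1.26 in B-1b. In complex IV, where the catalytic core is mitochondrial, the ratio was 1.63 and 1.55 in B-1a and 3.61 and 2.38 in B-1b. In complex V it was 0.208 and 0.204 in B-1a and 0.751 and 0.396 in B-1b. With the copies added, complex V was at 0.544 and 0.536 in B-1a and 1.84 and 0.985 in B-1b, and complex I at 0.514 and 0.554 in B-1a and 1.24 and 0.636 in B-1b, so complex V was below complex I in all 4 libraries without the copies and above it in 3 of 4 with them. Complex II has no mitochondrial subunit, and its 3 genes summed to 314 and 307 FPKM in B-1a and 335 and 367 in B-1b.

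Fold changes were fitted with limma on log2(FPKM + 1) over the 7557 genes that reached 1 FPKM in at least 2 of the 4 libraries, which all 90 subunits did, and are given as B-1b minus B-1a with a standard error (SE). After Benjamini-Hochberg adjustment limma called 15 of the 7557 genes (0.198%) and 0 of the 90 subunits. At an unadjusted p under 0.05, which 9.66% of all genes met, limma found 12 of the 13 mitochondrial and 4 of the 77 nuclear subunits. A linear model per gene without shared spread also called 0 subunits, and had 7 of the 13 mitochondrial and 4 of the 77 nuclear subunits at an unadjusted p under 0.05, against 8.69% of all genes in that fit. Both B-1b libraries were above both B-1a libraries for 12 of the 13 mitochondrial genes, against 25.8% of all genes, and for 5 of the 77 nuclear genes (Sdhb, Cox7c, Atp5b, Atp5e and Atp5l). Both were below for 1 mitochondrial gene, mt-Nd3, and for 11 nuclear genes, against 17.3% of all genes. The median log2 fold change was 1.32 over the mitochondrial genes, -0.03 over the nuclear genes and 0.05 over all genes tested. The log2 fold change was above 0 for 12 of the 13 mitochondrial genes, 34 of the 77 nuclear genes (44.2%) and 56.2% of all genes tested. Counts of genes above 0 given below stand beside that last share. The mitochondrial genes are cut from shared precursors and share their libraries, so they are not independent of each other.

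**Figure D2:**
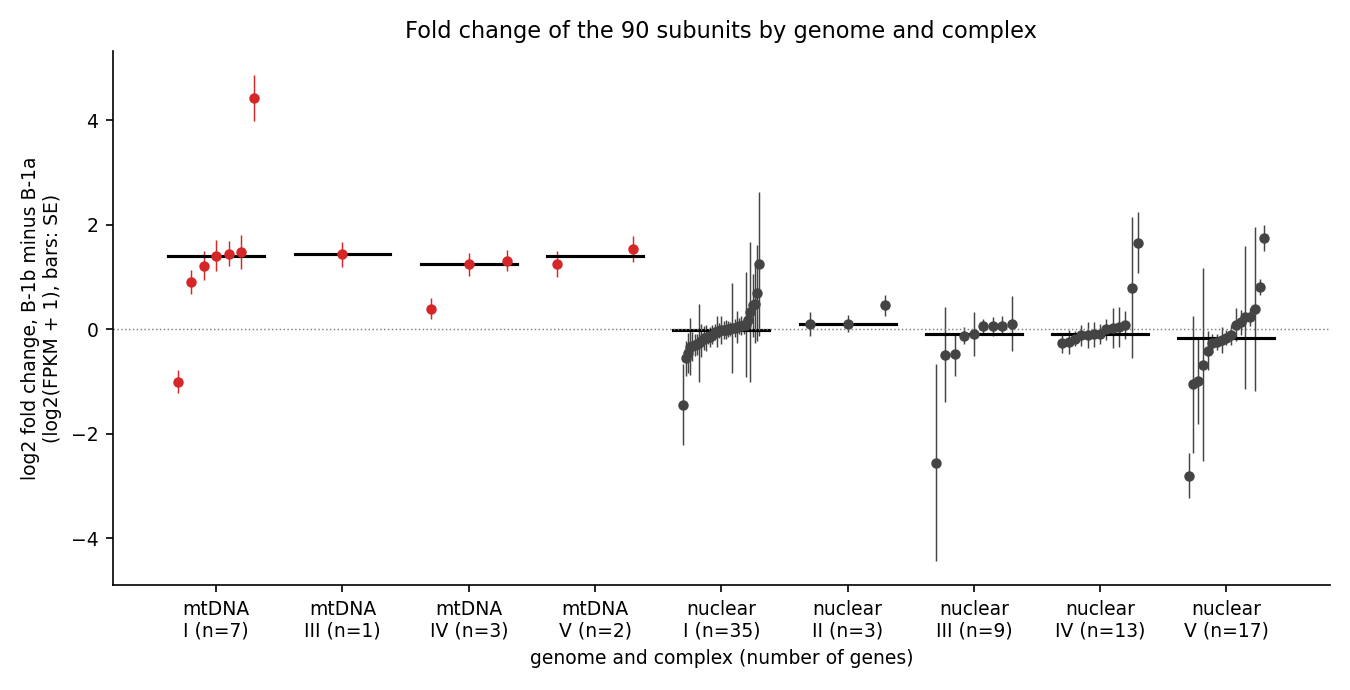
Each point is the log2 fold change (B-1b minus B-1a, on log2(FPKM + 1)) of 1 subunit with its standard error, grouped on the x axis by genome and complex, and horizontal lines mark the median of each group. The mitochondrial genes lie above 0 apart from mt-Nd3 at -1.0, whereas the medians of the nuclear groups lie between -0.16 and 0.11.

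Among the mitochondrial subunits of complex I, the proton-pumping membrane subunits mt-Nd1, mt-Nd2, mt-Nd4 and mt-Nd5 were higher in both B-1b libraries. mt-Nd1 was at 264 and 296 FPKM in B-1a and 809 and 526 in B-1b (log2 fold change 1.22, SE 0.27, limma adjusted p = 0.317). mt-Nd5 was at 75.3 and 97.9 FPKM in B-1a and 317 and 184 in B-1b (1.48, SE 0.33, limma adjusted p = 0.319). mt-Nd4 was at 68.0 and 93.0 FPKM in B-1a and 261 and 174 in B-1b. In each of these genes B-1b replicate 1 was the highest library and the groups did not overlap. mt-Nd2 had the smallest difference of the 4, from 98.3 and 117 FPKM in B-1a to 239.7 and 170.5 in B-1b (log2 fold change 0.91). mt-Nd4l, the smallest complex I subunit of the mitochondrial genome, was at 18.2 and 22.6 FPKM in B-1a and 67.3 and 48.6 in B-1b.

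mt-Nd6 had the largest difference of all 90 subunits. It was at 7.77 and 3.59 FPKM in B-1a and 175 and 104 in B-1b, 24.6-fold by the group means (log2 fold change 4.42, SE 0.44, limma adjusted p = 0.112). The fold was 39.0 without B-1a replicate 1 and 17.99 without B-1a replicate 2, so its size depended on that group's low values. No other subunit had a smaller adjusted p. The gene lies on the other strand than the remaining 12 (M:13552-14070, minus strand, GRCm38) and its end overlaps that of mt-Nd5 by 14 bases. FPKM of mt-Nd6 was 0.103 and 0.0366 of that of mt-Nd5 in B-1a and 0.554 and 0.566 in B-1b. No source used here says whether the libraries kept strand, so antisense RNA of the heavy-strand precursor and mt-Nd6 mRNA cannot be told apart if they did not. Its composition is the mirror of the other genes, with 28.1% G and 5.97% C in the coding strand where mt-Nd5 has 9.98% G and 27.1% C. The start of the gene shows this, in the 60 bases from its first codon on (GRCm38 chrM:14011-14070, minus strand), with few c:
mt-Nd6: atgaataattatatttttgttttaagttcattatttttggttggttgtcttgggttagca

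mt-Nd3 went the other way. It was at 275 and 310.1 FPKM in B-1a and 123 and 173 in B-1b, with both B-1b libraries below both B-1a libraries (log2 fold change -1.0, SE 0.23, limma adjusted p = 0.328). Its neighbours on the same strand, mt-Co3 before it and mt-Nd4l after it, were both higher in B-1b. FPKM of mt-Co3 was 5.40 and 5.13 times that of mt-Nd3 in B-1a and 16.6 and 11.6 times in B-1b. The sign of mt-Nd3 was the same in every alternative run, including those that left out a library.

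In complex III, mt-Cytb, the cytochrome b that holds both haem groups of the proton-moving Q cycle, was at 295 and 355 FPKM in B-1a and 1009 and 760.0 in B-1b (log2 fold change 1.43, SE 0.23, limma adjusted p = 0.239). In complex IV, mt-Co1, the subunit that holds the oxygen-reducing centre, was at 549 and 558 FPKM in B-1a and 1522 and 1129 in B-1b (1.24, SE 0.23). mt-Co2, which takes electrons from cytochrome c, was at 355 and 364 FPKM in B-1a and 1015 and 793 in B-1b (1.32, SE 0.20). The B-1a replicates of both genes were nearly equal, and both B-1b values stood well above them. mt-Co3 was the most abundant subunit mRNA in every library and differed least among the mitochondrial genes. It was at 1484 and 1592 FPKM in B-1a and 2040.4 and 2007 in B-1b (0.40, SE 0.20, limma adjusted p = 0.614), and was the 1 mitochondrial gene with an unadjusted p above 0.05.

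In complex V, mt-Atp6, part of the membrane channel for protons, was at 142 and 164 FPKM in B-1a and 439 and 300.1 in B-1b (log2 fold change 1.25, SE 0.25). mt-Atp8, a short membrane subunit beside it, was at 226 and 247 FPKM in B-1a and 835 and 572 in B-1b (1.54, SE 0.25, limma adjusted p = 0.236). The genes share 43 bases, shown here because a read within them matches both genes. The run (GRCm38 chrM:7927-7969, plus strand) begins with the mt-Atp6 start codon in capitals and ends with the last bases of mt-Atp8:
mt-Atp8 and mt-Atp6: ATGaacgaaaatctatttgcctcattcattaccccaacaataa

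**Figure D3:**
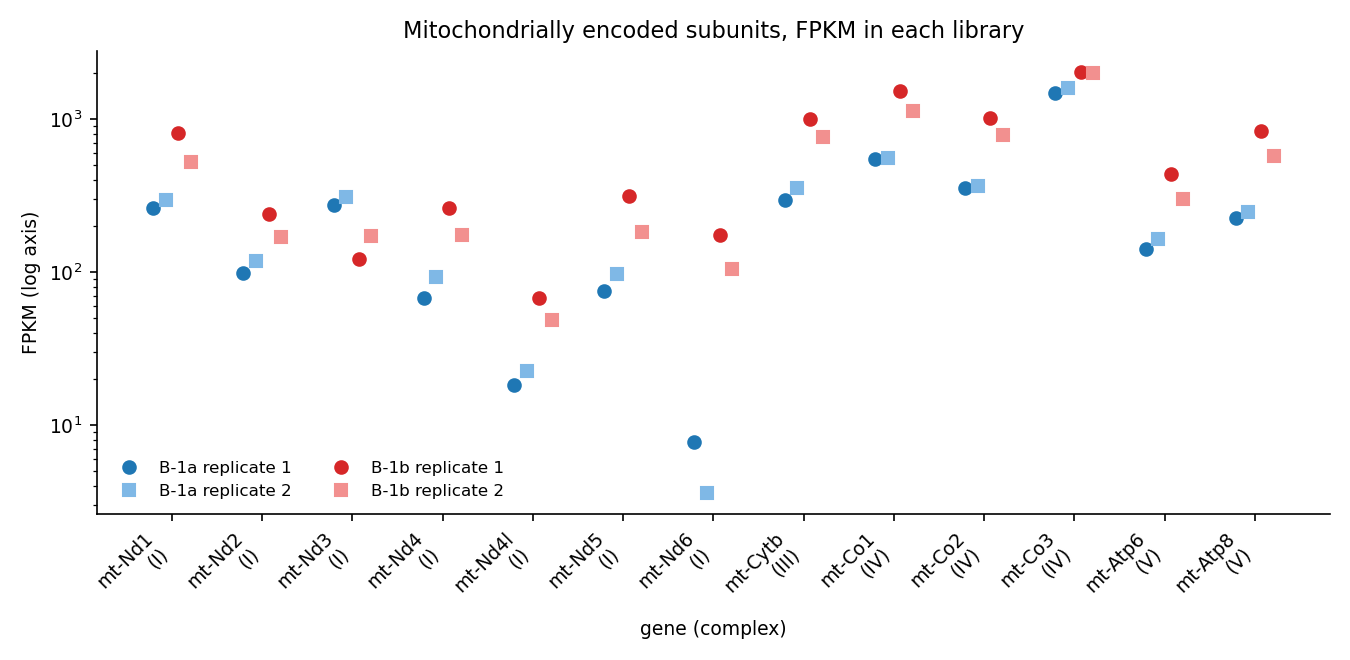
FPKM of each mitochondrially encoded subunit (log y axis) in each of the 4 libraries, with the complex in parentheses on the x axis. Both B-1b libraries lie above both B-1a libraries for 12 genes and below them for mt-Nd3, and the gap is widest for mt-Nd6.

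Nuclear copies were sought only among pseudogenes in a short stretch of chromosome 1. Of the 13 mitochondrial genes, 7 have a copy there that the table lists as a gene of its own. All 7 copies lie next to each other on chromosome 1 (1:24611535-24616197, minus strand, GRCm38), in a block of nuclear sequence that came from mitochondrial DNA. The copies of mt-Nd4l (Gm10222), mt-Atp6 (Gm10925), mt-Co3 (Gm28437), mt-Nd4 (Gm28439) and mt-Co2 (Gm28661) had 0 mismatches over 294 to 876 aligned bases. That of mt-Nd3 (Gm28438) differed at 1 of 345 bases (T3C, the mitochondrial base before and the base of the copy after its position in the gene) and that of mt-Co1 (Gm29216) at 6 of 492. The first 60 bases of mt-Nd3 (GRCm38 chrM:9459-9518, plus strand) and of its copy (chr1:24613060-24613119, minus strand) show how little separates them, with the differing base in capitals:
mt-Nd3: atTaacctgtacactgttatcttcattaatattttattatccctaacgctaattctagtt
Gm28438: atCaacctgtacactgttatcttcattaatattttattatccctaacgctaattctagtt

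The copies carried values that followed those of the mitochondrial genes. FPKM of the copy was 0.951 to 1.05 of that of mt-Nd4l, 0.962 to 0.979 of mt-Co3, 0.939 to 0.972 of mt-Nd3 and 0.984 to 0.990 of mt-Co2 over the 4 libraries. For mt-Nd4 the ratio was 0.391 to 0.418 and for mt-Co1 0.557 to 0.666. Gm10925 was above its gene, at 596, 669, 1848 and 1295 FPKM in B-1a replicates 1 and 2 and B-1b replicates 1 and 2, which is 4.08 to 4.31 times mt-Atp6. Gm28438 was lower in B-1b like mt-Nd3 (log2 fold change -0.96), and the other 6 were higher (0.39 to 1.41). No source used here says how reads that match both a gene and its copy were counted, so whether the values of a copy come from transcripts of the copy or of the mitochondrial gene was not tested. With each copy added to its gene, 12 of 13 were again higher in B-1b and the difference in share was 1.86 percentage points. mt-Nd1, mt-Nd2, mt-Nd5, mt-Nd6, mt-Cytb and mt-Atp8 have no such copy in the stretch searched, and all 6 were higher in both B-1b libraries. Most of them still share sequence with other genes. The share of 31-base words also found in other genes was 13.5% for mt-Nd2, 16.8% for mt-Nd5 and 7.36% for mt-Nd6. For mt-Cytb it was 6.55%, for mt-Atp8 7.47% and for mt-Nd1 0%.

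**Figure D4:**
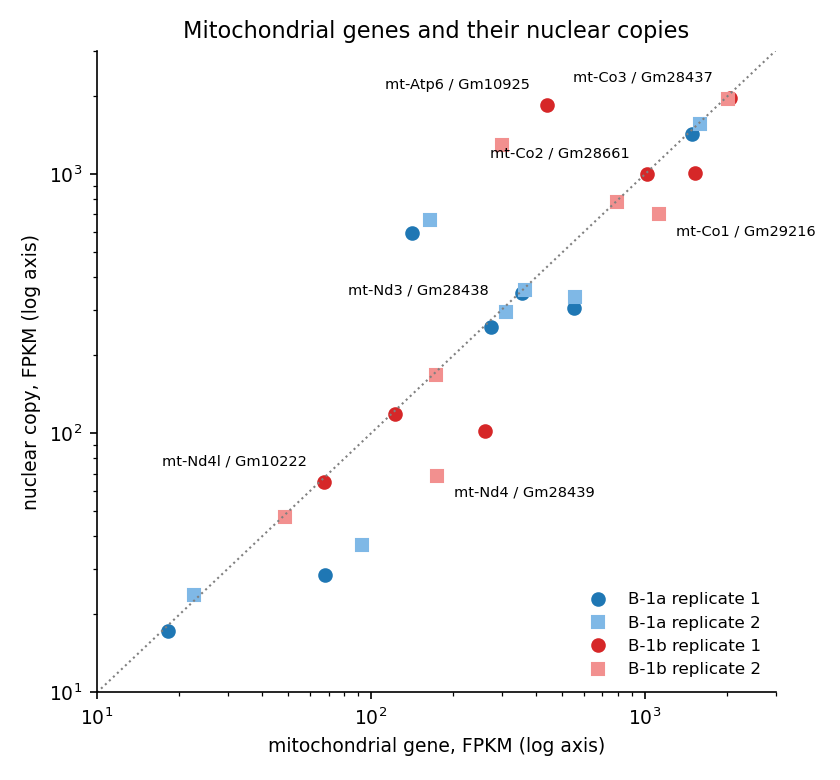
FPKM of the nuclear copy (log y axis) against that of its mitochondrial gene (log x axis) for 7 pairs, with 1 point for each of the 4 libraries and equality as a dotted line. Pairs mt-Nd3, mt-Nd4l, mt-Co2 and mt-Co3 lie on the line, and mt-Atp6 lies about 4-fold above it.

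Among the nuclear subunits, complex I had a median fold change near 0. Of its 35 nuclear genes, 15 had a log2 fold change above 0 (42.9%, against 56.2% of all genes tested) and 20 below, and the median was -0.02. In both B-1b libraries 0 were higher and 4 were lower (Ndufc1, Ndufa5, Ndufs7 and Ndufb10), beside 25.8% and 17.3% of all genes. Ndufv1, which holds the flavin that takes electrons from NADH, was at 27.3 and 28.4 FPKM in B-1a and 27.1 and 28.8 in B-1b (log2 fold change 0.01, SE 0.15). Its partner Ndufv2 was at 65.0 and 11.3 FPKM in B-1a and 31.99 and 63.0 in B-1b (0.69, SE 0.92), so the B-1a replicates spanned the B-1b values. Ndufs3, a core subunit of the arm that binds ubiquinone, was at 57.6 and 53.3 FPKM in B-1a and 55.2 and 56.1 in B-1b. The most abundant were the accessory subunits Ndufa7, at 169 and 155 FPKM in B-1a and 121 and 203 in B-1b, and Ndufa1, at 76.9 and 209 in B-1a and 128 and 238 in B-1b. Ndufc1 had the lowest fold change of complex I, from 20.1 and 16.5 FPKM in B-1a to 13.96 and 2.34 in B-1b (-1.44, SE 0.78, limma adjusted p = 0.638), where B-1b replicate 2 alone lay far down. Ndufs4, an accessory subunit that stabilises the NADH module, was at 31.3 and 21.7 FPKM in B-1a and 13.5 and 22.3 in B-1b, with overlapping groups.

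Complex II, which also belongs to the tricarboxylic acid cycle, was the 1 complex whose nuclear genes all had a fold change above 0 (median 0.11). Sdhb, the iron-sulfur subunit, was at 50.2 and 40.1 FPKM in B-1a and 56.8 and 67.7 in B-1b, without overlap (log2 fold change 0.46, SE 0.20, limma adjusted p = 0.569). The flavoprotein Sdha was at 140 and 147 FPKM in B-1a and 170.2 and 141 in B-1b. The membrane anchor Sdhd was at 124 and 119 in B-1a and 108 and 158 in B-1b, so for both the groups overlapped. Sdhc was not analysed here.

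Complex III had 4 of its 9 nuclear genes above 0 and 5 below (median -0.09). The core proteins were nearly level, Uqcrc1 at 107 and 108 FPKM in B-1a and 106 and 118 in B-1b, and the cytochrome c1 gene Cyc1 at 66.3 and 64.8 in B-1a and 61.6 and 77.2 in B-1b. Uqcrb was lower in both B-1b libraries, but by little, at 212 and 207 FPKM in B-1a and 179 and 206.5 in B-1b (log2 fold change -0.12, SE 0.16). Uqcrfs1, the Rieske iron-sulfur protein, was at 65.3 and 60.9 FPKM in B-1a and 69.6 and 0.693 in B-1b. Its fold change of -2.55 (SE 1.89) rested on B-1b replicate 2 alone, since replicate 1 was the highest of the 4 libraries.

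Complex IV had 5 of 13 nuclear genes above 0 and 8 below (median -0.09). Cox7c, a small membrane subunit, was at 8.87 and 4.96 FPKM in B-1a and 38.7 and 13.7 in B-1b (log2 fold change 1.66, SE 0.58, limma adjusted p = 0.506). It was higher in both B-1b libraries, which differed from each other 2.82-fold. Cox8a was the most abundant nuclear gene of the complex and lower in both B-1b libraries, at 342 and 363 FPKM in B-1a and 260.0 and 329 in B-1b (-0.27, SE 0.19). Cox4i1 was the second most abundant at 235 and 225 FPKM in B-1a and 193 and 304 in B-1b. Ndufa4, now counted with this complex, was at 122 and 125 FPKM in B-1a and 94.0 and 142 in B-1b, with overlapping groups.

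Complex IV and complex V have subunits made from alternative genes, often restricted to certain tissues. Of the Cox7a genes, the widely expressed Cox7a2 was at 129 and 123 FPKM in B-1a and 87.3 and 128 in B-1b. Cox7a2l, which takes part in joining complexes into supercomplexes, was at 70.4 and 69.6 in B-1a and 80.7 and 60.5 in B-1b. Cox7a1, the heart and muscle form, stayed at 0.883 to 1.40 FPKM in all 4 libraries. Cox6a1 was at 91.1 and 75.8 FPKM in B-1a and 60.3 and 122 in B-1b. The lung form Cox4i2, the muscle or testis forms Cox6a2, Cox6b2, Cox8b and Cox8c and the hypoxia-responsive Ndufa4l2 were not analysed here. The ring of ATP synthase that turns with the proton flow is made of an identical protein from the genes Atp5g1, Atp5g2 and Atp5g3. Atp5g2 was the steadiest, at 116 and 125 FPKM in B-1a and 88.2 and 112 in B-1b, below B-1a in both libraries (log2 fold change -0.27, SE 0.18). Atp5g1 was at 20.5 and 143 FPKM in B-1a and 24.0 and 169 in B-1b, and Atp5g3 at 7.02 and 44.3 in B-1a and 5.87 and 89.1 in B-1b, each with replicate 2 far above replicate 1 in both groups.

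Complex V held 3 of the 4 nuclear subunits with an unadjusted p under 0.05. Of its 17 genes, 7 had a fold change above 0 and 10 below (median -0.16). Atp5l, subunit g of the membrane part, was at 20.1 and 15.4 FPKM in B-1a and 52.1 and 72.6 in B-1b, 3.52-fold by the group means (log2 fold change 1.75, SE 0.25, limma adjusted p = 0.208). Atp5e, the epsilon subunit of the central stalk, was at 17.1 and 17.7 FPKM in B-1a and 33.3 and 29.4 in B-1b (0.81, SE 0.16, limma adjusted p = 0.272). In both genes the B-1b libraries stood clear of the B-1a libraries by more than the replicates differed. Atp5k, subunit e, which lies beside subunit g where ATP synthase dimers meet, was at 9.09 and 16.3 FPKM in B-1a and 0.481 and 1.43 in B-1b (-2.80, SE 0.44, limma adjusted p = 0.223). So the neighbours g and e had the highest and the lowest fold change of the nuclear complex V genes. The catalytic beta subunit Atp5b was the most abundant nuclear subunit, at 451 and 467 FPKM in B-1a and 502 and 582 in B-1b (0.24, SE 0.17). Its partner alpha, Atp5a1, was at 226 and 229 in B-1a and 196 and 212 in B-1b, and delta, Atp5d, at 123 and 118 in B-1a and 95.7 and 109 in B-1b, both below B-1a in both libraries but by less than 0.3 on the log2 scale.

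The rows behind these genes were not alike. In Atp5l 1 row held nearly all signal, at 17.4 and 12.5 FPKM in B-1a and 50.2 and 69.4 in B-1b, while the other stayed at 1.92 to 3.22. In Atp5e 1 row went from 5.79 and 5.17 FPKM in B-1a to 23.8 and 14.2 in B-1b, and the other was at 11.3 and 12.5 in B-1a and 9.50 and 15.2 in B-1b. Atp5k has 1 row. The pseudogene Atp5l2-ps, with 78.0% of its 31-base words also in Atp5l, was at 0.305 FPKM in B-1b replicate 1 and at 4.52 to 5.26 in the other libraries, so it did not follow Atp5l.

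Promoters are shown for these 3 complex V genes, since they are the nuclear genes with the smallest p. RefSeq promoters (GRCm38.p6, 250 bases before to 50 after a start site) were matched for 64 of the 77 nuclear subunits and searched on both strands for the letters GCGCATGCG (the core of the site of NRF1, nuclear respiratory factor 1), CCGGAAG (ETS factors such as GABP) and AAGATGGCG (YY1). The 250 bases before the start site are printed on the strand of the gene (minus for all 3), with matches in capitals and the start site just after the last base:
Atp5l (chr9:44920743-44920992): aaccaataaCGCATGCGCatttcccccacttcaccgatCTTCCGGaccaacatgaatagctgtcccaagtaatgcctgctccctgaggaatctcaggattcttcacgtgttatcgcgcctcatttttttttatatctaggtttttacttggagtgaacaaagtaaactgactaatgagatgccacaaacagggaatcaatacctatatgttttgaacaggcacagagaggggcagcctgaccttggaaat
Atp5k (chr5:108434400-108434649): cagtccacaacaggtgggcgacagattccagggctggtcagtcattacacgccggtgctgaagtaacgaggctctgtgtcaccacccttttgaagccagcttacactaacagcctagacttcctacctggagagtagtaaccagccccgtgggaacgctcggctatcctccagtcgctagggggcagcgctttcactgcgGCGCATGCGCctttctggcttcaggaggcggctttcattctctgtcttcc
Atp5e (chr2:174464102-174464351): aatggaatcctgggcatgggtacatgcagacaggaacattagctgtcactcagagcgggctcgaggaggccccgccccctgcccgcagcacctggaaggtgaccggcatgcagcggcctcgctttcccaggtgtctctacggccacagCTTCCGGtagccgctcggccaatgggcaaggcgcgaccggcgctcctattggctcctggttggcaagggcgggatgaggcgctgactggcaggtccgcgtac

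Both Atp5l and Atp5k, which differed in opposite directions, hold the NRF1 letters and the ETS letters in the 300-base window, and in Atp5k the NRF1 letters match on both strands in an overlapping run. Over the 64 matched subunits, 8 held the NRF1 letters (12.5%), against 1.95% of all 27025 genes with a promoter and 4.39% of the 5713 tested genes with one. The YY1 letters were in 7 (10.9%), 5 of them in complex I, against 1.64% of all and 4.39% of tested genes. The ETS letters were in 16 (25.0%), against 9.93% of all and 23.6% of tested genes. The median log2 fold change was -0.12 with the NRF1 letters and -0.01 without, 0.03 with the ETS letters and -0.07 without, and -0.28 with the YY1 letters and -0.01 without. A match is a run of letters and not a bound site.

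Across the nuclear subunits the B-1b libraries differed from each other. B-1b replicate 1 was below both B-1a libraries for 50 of 77 genes (64.9%), against 33.8% of all genes, while replicate 2 was above both for 42 (54.5%), against 43.9% of all genes. For 29 genes (37.7%) B-1b replicate 1 was the lowest and replicate 2 the highest of the 4 libraries, against 10.3% of all genes. Replicate 2 was above replicate 1 in 65 of the 77 (84.4%), against 50.5% of all genes. Without B-1b replicate 1 the nuclear median was 0.13 and 53 genes were higher in B-1b, and without B-1b replicate 2 it was -0.22 and 18 were higher. So the sign of the nuclear median in B-1b was set by which library was kept. The mitochondrial genes had the opposite order, with replicate 1 above replicate 2 for 12 of 13, and a median of 1.09 and 1.53 in these 2 fits.

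**Figure D5:**
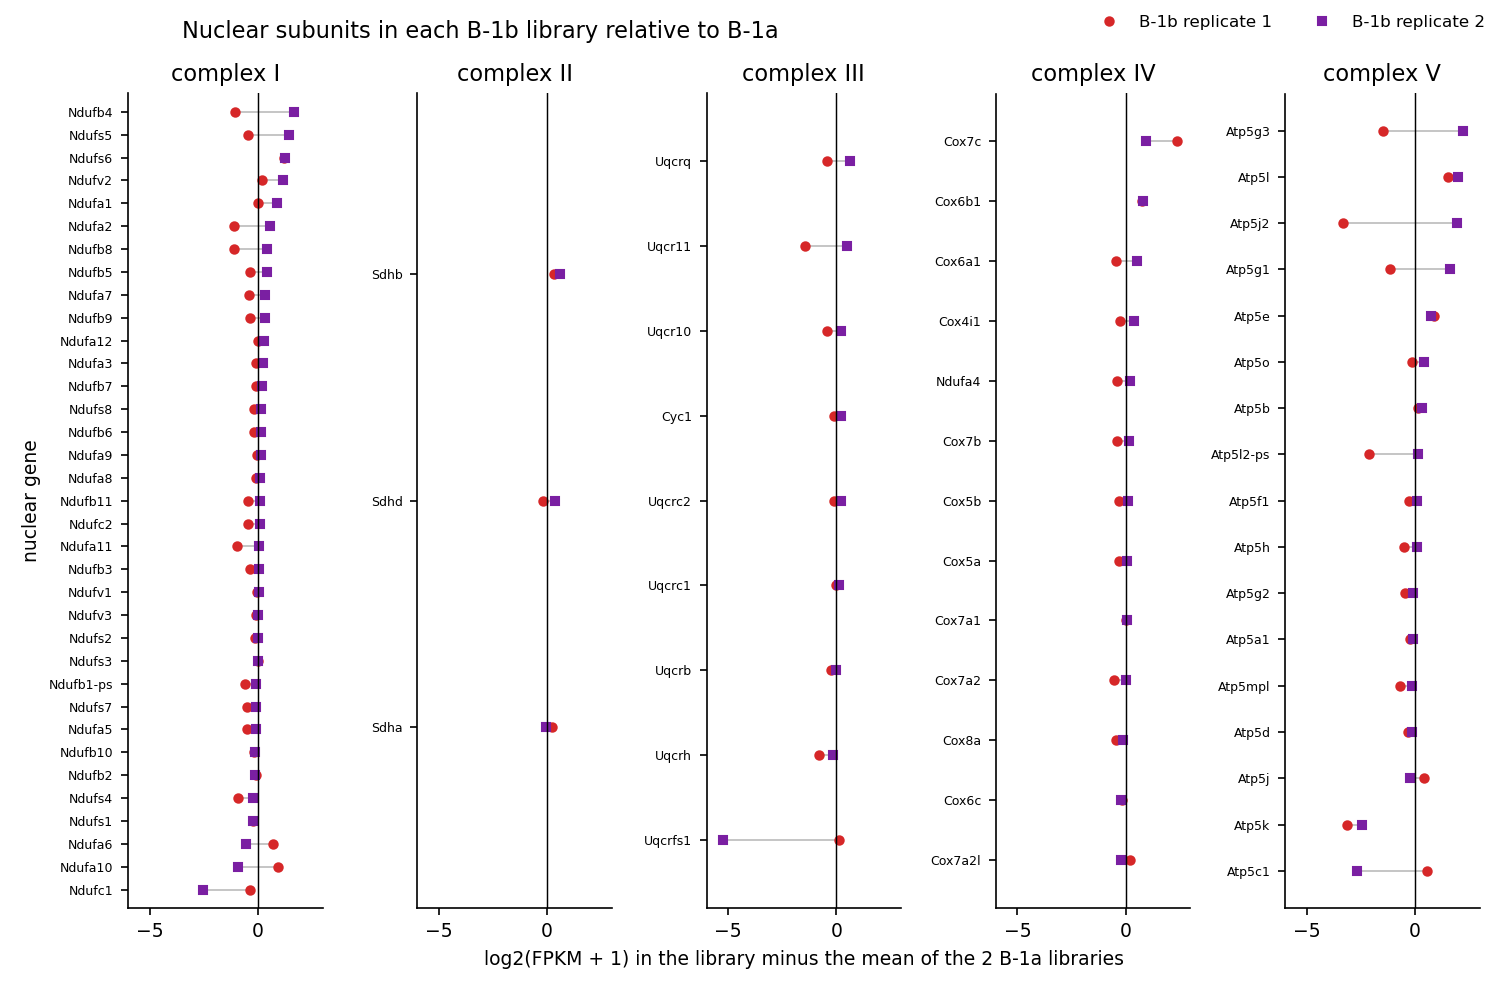
Each row is a nuclear subunit, in a panel for its complex, and points give log2(FPKM + 1) in B-1b replicate 1 (circles) and replicate 2 (squares) minus the mean of the B-1a libraries (x axis). In 65 of 77 rows the square lies to the right of the circle, and Sdhb, Cox7c, Atp5b, Atp5e and Atp5l are the rows in which both B-1b libraries exceeded both B-1a libraries.

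For 13 of the 77 nuclear subunits (16.9%), values differed over 4-fold between replicates of a group, against 10.7% of all genes. Of these, Atp5j2 was at 26.6 and 33.7 FPKM in B-1a and 2.11 and 120 in B-1b. Cox6b1 was at 9.35 and 147 in B-1a and 66.2 and 68.0 in B-1b, and 1 of its 3 rows made most of that, with 2.69 FPKM in B-1a replicate 1 and 139 in replicate 2. Ndufs6 was at 69.6 and 3.70 in B-1a and 41.1 and 43.4 in B-1b, and Atp5c1, the gamma subunit of the rotor, at 49.2 and 174 in B-1a and 138 and 13.6 in B-1b. These 13 genes had their extremes in different libraries, so no library accounts for all of them. They had a median of 9.83% of their 31-base words in other genes against 6.11% for the other 64, and 10 of 13 had several rows against 41 of 64. Their median of mean FPKM was also lower, at 39.4 against 72.6 for the other 64. What part these traits had was not tested. Among the 41 nuclear subunits whose replicates were within 1.5-fold in both groups, 17 had a fold change above 0, the median was -0.03, and 2 (4.88%, Atp5l and Atp5e) differed by over 0.5 on the log2 scale, against 13.9% of the 4429 such genes in the table.

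Genes that make, read or assemble the complexes were taken as lists. Of 21 tested genes for transcription, replication and RNA stability of mitochondrial DNA, 0 were called, 13 had a fold change above 0 and 8 below, and 7 were higher in both B-1b libraries and 3 lower (median 0.13), beside 25.8% and 17.3% of all genes. The polymerase Polrmt was at 8.17 and 7.86 FPKM in B-1a and 10.2 and 8.62 in B-1b, and Tfam, which packs mitochondrial DNA, at 15.2 and 13.8 in B-1a and 14.2 and 15.2 in B-1b. The elongation factor Tefm was higher in both B-1b libraries, at 8.03 and 8.63 in B-1a and 10.7 and 10.5 in B-1b (log2 fold change 0.31, SE 0.18), as was the RNA exonuclease Rexo2, at 38.4 and 43.8 in B-1a and 49.3 and 70.3 in B-1b (0.51, SE 0.23). Of 32 tested assembly factors 0 were called, 14 were above 0 and 18 below (median -0.06), and 2 were higher and 5 lower in both B-1b libraries. Surf1, needed for complex IV assembly, was at 0.0256 and 0.146 FPKM in B-1a and 3.73 and 4.74 in B-1b (2.27, SE 0.36). It is among the 2 that were higher, but only the B-1b libraries put it past the filter of 1 FPKM, so no test is read from it. Coa5, another complex IV assembly factor, was at 38.9 and 38.7 in B-1a and 30.8 and 17.2 in B-1b (-0.73, SE 0.32).

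Of 13 electron carriers and genes of coenzyme Q synthesis, 10 were above 0, 7 were higher in both B-1b libraries and 2 lower (median 0.13). In all these lists, counts above 0 stand beside 56.2% of all genes tested. Counts higher or lower in both B-1b libraries stand beside 25.8% and 17.3% of all genes. Cycs, cytochrome c, was at 41.2 and 41.9 FPKM in B-1a and 58.7 and 49.9 in B-1b (log2 fold change 0.37, SE 0.16). The kinase-like Coq8b was at 5.83 and 6.10 in B-1a and 8.81 and 9.39 in B-1b, and Coq6 is listed at 0 in both B-1a libraries and at 2.04 and 1.30 FPKM in B-1b. Coq6 is counted among the 7, but passed the filter of 1 FPKM only through the B-1b libraries, so no test is read from it. The 18 tricarboxylic acid cycle genes split evenly, 9 above 0 and 9 below (median 0.01), with Idh3g, a regulatory subunit of isocitrate dehydrogenase, at 11.1 and 15.3 in B-1a and 3.44 and 1.67 in B-1b (-2.03, SE 0.36, limma adjusted p = 0.257). Idh2, the NADP-linked mitochondrial isocitrate dehydrogenase, was at 30.4 and 23.2 in B-1a and 18.6 and 15.99 in B-1b (-0.60, SE 0.21). Of 15 glycolysis genes 10 were above 0, 6 were higher in both B-1b libraries and 0 lower (median 0.08), among them the glucose transporter Slc2a1, at 25.1 and 32.6 in B-1a and 41.3 and 56.8 in B-1b (0.74, SE 0.25), and the isomerase Tpi1, at 106 and 112 in B-1a and 130.3 and 128 in B-1b (0.24, SE 0.14). Of 22 genes of mitochondrial membranes and import, 6 were higher in both B-1b libraries and 4 lower (median 0.13), close to the shares of all genes. The prohibitin Phb was at 19.5 and 20.2 in B-1a and 35.5 and 49.7 in B-1b (1.05, SE 0.22, limma adjusted p = 0.292), and the chaperonin Hspd1 at 59.1 and 68.7 in B-1a and 80.2 and 99.99 in B-1b (0.48, SE 0.19). Of 5 tested transcriptional regulators of mitochondrial genes, 3 were above 0 and 2 below (median 0.55), with 2 higher in both B-1b libraries (Gabpa and Hcfc1) and 1 lower (Myc). Hcfc1, a cofactor of transcription, was at 3.39 and 4.52 FPKM in B-1a and 9.67 and 4.98 in B-1b (0.70, SE 0.38). Myc was at 41.8 and 43.8 FPKM in B-1a and 15.9 and 13.5 in B-1b (-1.49, SE 0.16, limma adjusted p = 0.149). limma called 0 genes of these lists, and their members with an unadjusted p under 0.05 numbered 0 of 21, 1 of 32, 2 of 13, 2 of 18, 1 of 15, 1 of 22 and 1 of 5, beside 9.66% of all genes. The 1 of 32 is Surf1, and Coq6 is 1 of the 2 of 13. Both passed the filter only through B-1b, the group where they are high.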

How the data were processed

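Messenger RNA was captured by poly-A, and the authors used HISAT2 for alignment to GRCm38/mm10, StringTie for quantification and Ballgown for testing, with versions and annotation not given in the sources used here. Deposited values were read as FPKM per transcript from their fractional form. The table states no unit and its name refers to counts, which they are not. Depth is unknown, so no counting interval is given and the number of libraries limits precision. The table has 0 other sample columns. Over all 13747 rows, B-1b replicate 3 equals replicate 1 in 13722 and B-1a replicate 3 the mean of replicates 1 and 2 in 13710 (relative tolerance 1e-06).

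Rows of a gene were summed, and 7830 of 7834 names matched GENCODE M21. Genes with at least 1 FPKM in 2 of 4 libraries were fitted with limma 3.58.1 (R 4.3.3) on log2(FPKM + 1) with an intensity trend and Benjamini-Hochberg adjustment. Adding 1 makes the fold changes of low genes too small. The fit was tested on simulated data. Shares were compared by exact permutation tests (scipy 1.17.1).

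The members, lists and tests were chosen with earlier results of these data known. The genes named are all mitochondrial members with their listed nuclear copies, and others drawn from several groups. These groups were the 2 highest by mean FPKM and the 2 at either end of fold change in each complex, isoform sets and the 2 smallest p of each further list. Genes that separate the groups, that differ between replicates or that have a known role (among them Ndufv1, Ndufs3, Ndufs4, Atp5d, Atp5a1, Polrmt, Tfam and Cycs) were added after their values were seen. The lists were mitochondrial DNA transcription, assembly factors, electron carriers, the tricarboxylic acid cycle, glycolysis, membranes and import, and transcriptional regulators, with marker lists for B, B-1, B-2, plasma, T, NK, mast and erythroid cells, macrophages and neutrophils and a list for RNA quality and stress.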

Additional observations from a re-analysis of the deposited data

How the results depend on the processing

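With all 6 columns of the table taken as libraries, 17 subunits were called (12 mitochondrial genes and Atp5e, Atp5l and Cox7c higher, mt-Nd3 and Atp5k lower) against 0 otherwise, and 1259 genes against 15, since copied columns shrink the spread. In 0 other settings was a named subunit called. The setting that added each nuclear copy to its mitochondrial gene, chosen after seeing the data, gave a difference in share of 1.86 percentage points. Leaving out each library in turn moved the difference in mitochondrial share between 0.723 and 1.56 percentage points, the log2 ratio of mitochondrial to nuclear signal between 0.61 and 1.35, the mitochondrial median between 1.09 and 1.53, the nuclear median between -0.22 and 0.13, and the nuclear medians of complexes I to V between -0.18 and 0.12, 0.13 and 0.38, -0.22 and 0.23, -0.29 and 0.10, and -0.33 and 0.080. It called 0 genes, with the lone library assumed to vary like the other group. The replicate number as a block called 0 subunits and 0 genes and left the medians as they were. The correlation of replicate deviations between groups was 0.00124 over 7557 genes and 0.156 over the 90 subunits, and no label says that a number marks a shared mouse or day. Counts of genes called were 14 with a pseudocount of 0.1 or at least 10 FPKM, 7 without a filter, 8 with the highest row per gene, 18 with equal upper quartiles, 17 with equal totals without immunoglobulin and mitochondrial genes, 19 with the mean of B-1b replicates 1 and 3, and 0 with a linear model per gene, which put 7 of 13 mitochondrial genes at an unadjusted p under 0.05 in place of 12. Scaling to equal upper quartiles put 29 nuclear subunits above 0 in place of 34, and scaling to those equal totals 37. In all 16 alternatives 12 of 13 mitochondrial genes were higher in B-1b. Of 23 named members whose libraries overlap, 22 changed sign in at least 1 setting. Unknown depth limits what can be said of low genes such as Cox7a1 and Surf1.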

Other observations

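Of the noncoding genes of mitochondrial DNA tested, all but mt-Rnr2 were higher in both B-1b libraries. The large ribosomal RNA mt-Rnr2 was at 724 and 624 FPKM in B-1a and 554 and 585 in B-1b, lower in both B-1b libraries (log2 fold change -0.24, SE 0.18). The small ribosomal RNA mt-Rnr1, transcribed just before it, was at 115 and 118 in B-1a and 193 and 181 in B-1b (0.68, SE 0.14, limma adjusted p = 0.292). FPKM of mt-Rnr2 was thus 6.27 and 5.30 times that of mt-Rnr1 in B-1a and 2.87 and 3.23 times in B-1b, and mt-Co1 was 0.759 and 0.894 of mt-Rnr2 in B-1a and 2.75 and 1.93 in B-1b. All 11 transfer RNA genes tested were higher in both B-1b libraries (log2 fold change 0.44 to 1.42, median 0.79), beside 25.8% of all genes, and limma called 0 of them. mt-Tn was at 28.5 and 32.1 FPKM in B-1a and 53.2 and 52.8 in B-1b (0.79, SE 0.15, limma adjusted p = 0.265), and mt-Tl1, between mt-Rnr2 and mt-Nd1, at 3.26 and 4.94 in B-1a and 15.1 and 10.3 in B-1b (1.42, SE 0.31). The libraries were captured by poly-A, and mature transfer RNA is short and lacks such a tail, so these values may be of longer precursors, which was not tested.

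Marker lists of other cells gave these values. The erythroid markers, among them Hbb-bs and Hbb-bt, summed to 21.7 and 34.3 FPKM in B-1a and 13.5 and 24.5 in B-1b, and the mast cell markers, among them Mcpt4 and Tpsb2, to 79.1 and 74.9 in B-1a and 146 and 75.003 in B-1b. Plasma cell markers, among them Xbp1 and Irf4, summed to 131 and 126 in B-1a and 129.7 and 162 in B-1b. Of the B-1 markers, Bhlhe41 was at 0.775 and 1.23 FPKM in B-1a and 4.87 and 2.68 in B-1b, and Cd9 at 12.4 and 11.7 in B-1a and 14.9 and 47.0 in B-1b, while Spn (CD43) was at 2.37 and 2.64 in B-1a and 4.09 and 1.17 in B-1b, with overlapping groups (log2 fold change -0.07, SE 0.51). Of the B-2 markers, Ighd was at 436 and 329.5 in B-1a and 214 and 241 in B-1b, and Fcer2a at 9.71 and 11.5 in B-1a and 17.6 and 13.1 in B-1b, while Cr2 was at 1.17 FPKM in B-1a replicate 1 and 2.86 in B-1b replicate 1 and is listed at 0 in both replicates 2. Of the 14 genes for RNA quality and stress, 10 had a log2 fold change above 0 (median 0.59), beside 56.2% of all genes tested. In both B-1b libraries 3 were higher (Atf3, Hspa1a and Hspa1b) and 3 lower (Jun, Junb and Atf4), beside 25.8% and 17.3% of all genes. Hspa1a passed the filter of 1 FPKM only through the B-1b libraries. Atf3 was at 16.0 and 10.5 FPKM in B-1a and 24.4 in either B-1b library (0.86, SE 0.25). Hspa1b was at 1.33 and 1.02 in B-1a and 2.31 and 34.8 in B-1b, so B-1b replicate 2 stood apart. Junb was at 15.4 and 11.2 FPKM in B-1a and 0.537 and 1.32 in B-1b (log2 fold change -2.90, SE 0.34, limma adjusted p = 0.171).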
